A study of Homo sapiens with 91 samples.

Results

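The Mediator genes described here are 32 genes coding for the subunits of the Mediator complex and of its kinase, chosen by symbol from a fixed list and matched to gene identifiers. All 32 were found among 62710 genes. They comprise 7 head subunits, 9 middle subunits, the scaffold MED14, 9 tail subunits and 6 genes of the kinase module. RNA was sequenced in bulk from 91 libraries of 3 established human cancer cell lines, MOLT4 (acute lymphoblastic leukemia), PSN1 (pancreatic adenocarcinoma) and RH4 (rhabdomyosarcoma; the series' design text writes RH1, the sample labels RH4). Cells received DMSO (the vehicle), KB-0742 (a CDK9 inhibitor) or KI-CDK9d-32 (a CDK9 degrader, a compound that causes CDK9 protein to be destroyed). MOLT4 was sampled at 2, 4 and 8 h with each treatment, PSN1 at 2, 4 and 8 h except that KB-0742 was sampled at 4 and 8 h, and RH4 at 4 and 8 h. Each of the 23 groups had 4 libraries, apart from MOLT4 with DMSO at 4 h, which had 3. The labels give no doses, so a difference between the compounds is one between treatments as given. Each line is a single established cell line, and nothing states that replicates came from different cultures. The p-values then cover only the variation among these libraries, which may be technical.

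Mediator is the large complex that bridges DNA-bound transcription factors and RNA polymerase II. Its head and middle modules contact the polymerase, its tail receives activators, MED14 holds these modules together, and the kinase module (CDK8 or CDK19 with cyclin C, MED12 and MED13 or MED13L) binds reversibly and blocks the polymerase from binding the core. CDK9, the target of both compounds, is the kinase of P-TEFb that releases paused polymerase into elongation, and Mediator helps to recruit it to promoters.

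The libraries were shallow for single genes. Gene counts per library ran from 1598283 to 3240753 in MOLT4, 1998712 to 3227113 in PSN1 and 1670111 to 3136769 in RH4, and the median Mediator gene had a mean of 67.0, 53.3 and 58.7 counts per library. Every lysate received the same quantity of spike-in RNA. Its share of counts was 7.51% to 21.2% with DMSO, and it rose to 28.2% to 61.5% in MOLT4 with KI-CDK9d-32 at 8 h. In MOLT4 at 4 h, replicate 3 stood apart with each compound, at 39.5% for KI-CDK9d-32 and 49.4% for KB-0742. With DMSO at 4 h replicate 3 was also the highest, at 21.2% against 14.0% and 12.1%. It was again the highest with KI-CDK9d-32 at 8 h, at 61.5%. Fold changes are therefore given on the scale of TMM, which sets each gene against the rest of its library, and the value scaled to the spike-ins is given beside a printed value whose sign it turns. Fewer cells per lysate and less RNA per cell cannot be told apart. The median of all genes with spike-in scaling at 8 h was -2.99 (log2) for KI-CDK9d-32 in MOLT4 and -1.41 for KB-0742. The same values were -1.01 and -0.94 for PSN1, and -0.92 and -1.66 for RH4. Markers fitted the labelled lines: the summed level of a line's own marker list was 530 to 2275 TPM in MOLT4, 1038 to 3238 in PSN1 and 508 to 855 in RH4, and the other lines' lists reached at most 21.3 TPM. The median was over 1 TPM for 6 of 7, 5 of 6 and 6 of 6 markers of the own line.

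Levels of Mediator genes with DMSO spanned a wide range in TPM, a unit corrected for length by which genes can be compared. With DMSO at 8 h (n = 4), MED30, a metazoan subunit placed with the tail, was highest in MOLT4 at 85.1 ± 18.6 TPM (SD), and its libraries did not overlap those of MED27, the next gene. MED21, a middle subunit at the hinge with MED7, was highest in PSN1 at 64.8 ± 9.36 TPM and in RH4 at 51.1 ± 13.4 TPM. In PSN1 its libraries overlapped those of MED31 (54.6 ± 20.9 TPM), and in RH4 those of MED27 (45.5 ± 10.1 TPM). The genes of the kinase module other than cyclin C (CCNC) lay low in all 3 lines. In MOLT4, CDK8 was at 1.11 ± 0.276 TPM and CDK19, its paralog, at 0.434 ± 0.157. In PSN1 the same genes were at 0.714 ± 0.543 and 0.0774 ± 0.0556 TPM, and in RH4 at 1.77 ± 0.543 and 0.317 ± 0.168. MED14, the scaffold, was also low, at 0.589 ± 0.168, 0.587 ± 0.22 and 0.76 ± 0.262 TPM. MED26, the subunit that docks elongation factors, was lowest in MOLT4 (0.346 ± 0.46 TPM) and RH4 (0.236 ± 0.164 TPM). Most neighbours in these orders overlapped. The gap to the next gene was clear of overlap only for MED30, MED10 and MED13L in MOLT4, MED13L in PSN1 and MED23 in RH4.

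**Figure D1:**
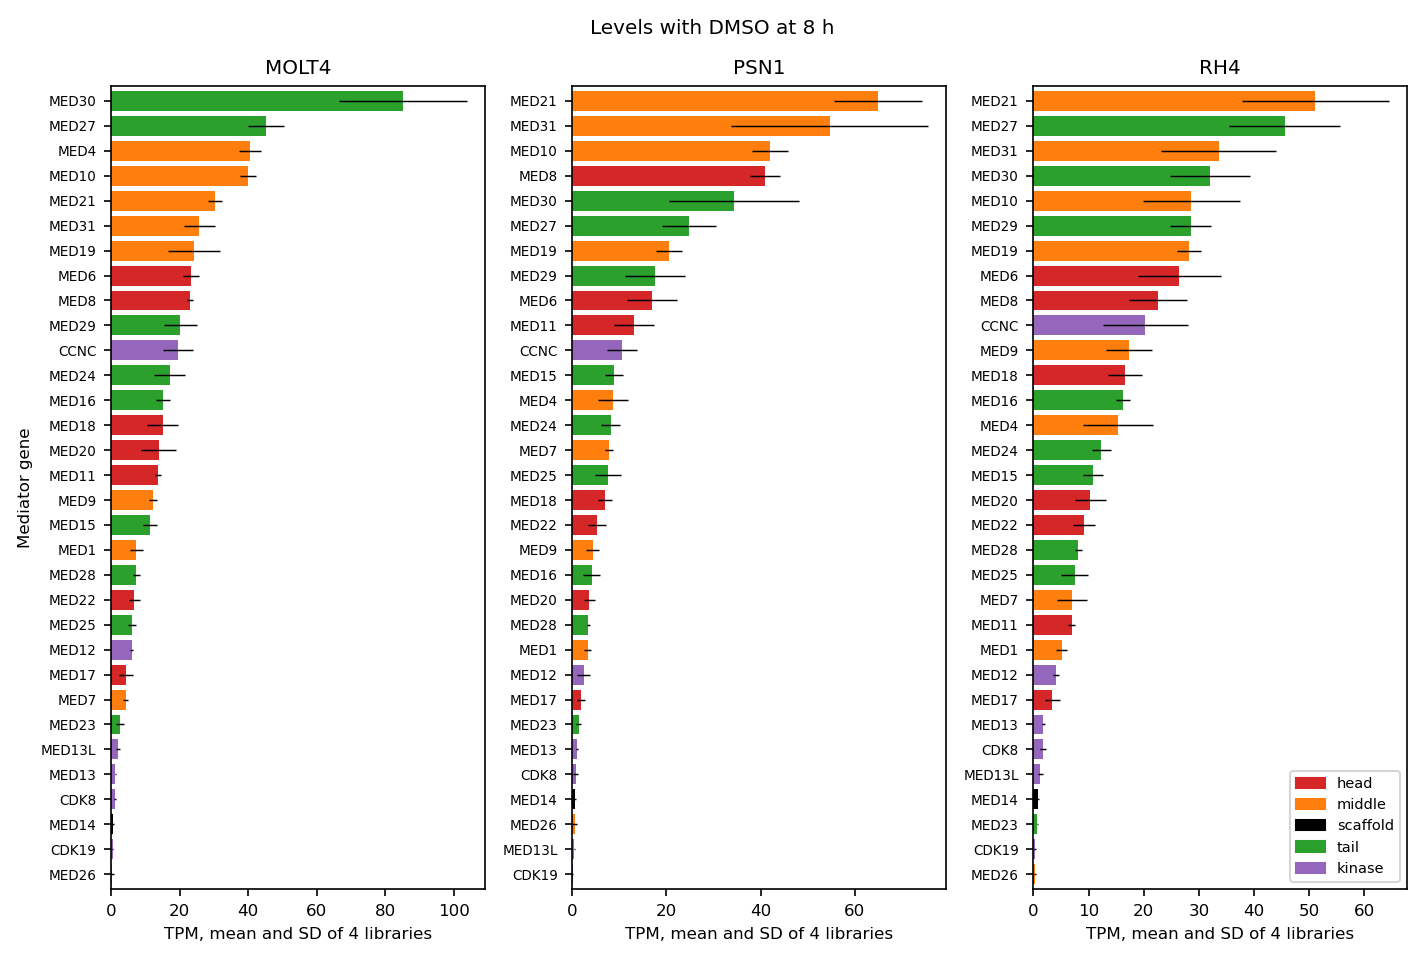
Level of each Mediator gene with DMSO at 8 h, in TPM, as the mean of 4 libraries with bars for the SD, coloured by module. Small head, middle and tail subunits lead each line, and CDK8, CDK19, MED14 and MED26 lie near the bottom of each panel.

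The filter on low counts kept 32 members of 11664 tested genes in MOLT4, 31 of 12471 in PSN1 and 30 of 12058 in RH4. CDK19 was not tested in PSN1 and RH4, nor MED26 in RH4. With spike-in scaling no member was called higher against DMSO at 8 h in any line. With KI-CDK9d-32, MOLT4 then had 31 members lower (all genes: 0.857% higher, 91% lower), PSN1 22 (1.11%, 51.2%) and RH4 25 (0.738%, 51.6%). With KB-0742, MOLT4 had 14 (0.609%, 54.3%), PSN1 15 (1.2%, 46.8%) and RH4 25 (1%, 77.9%).

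In MOLT4, KI-CDK9d-32 lowered Mediator genes of the head and middle modules relative to the other genes. The count was 0 higher and 3 lower of 32 at 2 h (all genes: 4.57% higher, 5.41% lower). At 4 h it was 1 higher and 12 lower (all genes: 13.6% and 18.9%), and at 8 h 4 higher and 19 lower (all genes: 20.8% and 28.7%). The median log2 fold change over the members was -0.23, -0.51 and -0.57, beside -0.02, -0.11 and -0.18 over all genes tested. Of the 7 head genes 2, 5 and 6 were lower at 2, 4 and 8 h, and of the 9 middle genes 1, 5 and 7. When the effects at 4 h and 8 h were compared directly, only MED11 among the head genes and MED10 among the middle genes were lower at 8 h, and none was higher. At 8 h 4 of 9 tail genes and 2 of 6 kinase genes were lower. Without replicate 3, the library with 61.5% spike-in counts, 4 were higher and 15 lower at 8 h. Without replicate 4 the total of 23 fell to 17. In all libraries with spike-in scaling, 7 of 7 head and 8 of 9 middle genes were lower at 8 h. So were 9 of 9 tail genes, 6 of 6 kinase genes and MED14.

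MED8, a head subunit that anchors MED18 and MED20, showed the largest fall. In MOLT4 with DMSO at 8 h its libraries held 30, 36.5, 35.9 and 31.4 CPM (a share of the library's gene counts, with TMM scaling), and with KI-CDK9d-32 0.655, 1.83, 5.53 and 0.585. Every treated library lay far below every vehicle library. The log2 fold change was -4.12 ± 0.34 (SE, adjusted p = 9.37e-15), after -0.91 ± 0.22 (0.00338) at 2 h and -2.88 ± 0.29 (4.48e-11) at 4 h. MED10, a middle subunit, went from 40.3, 43.3, 41.9 and 42.7 CPM to 7.86, 7.93, 1.84 and 1.17, a change of -3.11 ± 0.34 (1.92e-10). MED21 went from 36.2, 32.7, 36.6 and 28.2 CPM to 8.52, 6.1, 1.84 and 2.34, a change of -2.78 ± 0.28 (3.11e-12). For MED8, MED10 and MED21 no treated library reached a vehicle library, although the 4 treated libraries differed among themselves by several-fold. Such non-overlap was a condition for printing these members in full. MED17, the central head subunit, fell by 2.54 ± 0.54 (0.000119) from a mean of 11.1 ± 4.39 to 2.1 ± 1.9 CPM. MED11, its partner in the head, gave 0.08 ± 0.41 at 4 h (-0.94 with spike-in scaling) and fell by 2.81 ± 0.51 (7.76e-06) at 8 h. MED18, MED19, MED7, MED6, MED20 and MED27 changed by -2.05, -1.54, -1.48, -1.22, -1.03 and -1.43. MED31 and MED29 were also called lower. MED31 went from 10.6, 12.8, 13.7 and 14.6 to 1.97, 3.05, 5.53 and 0 CPM. MED29 went from 68.7, 47.1, 34.9 and 58.9 to 32.8, 22.6, 25.8 and 15.2 CPM. The calls of MED1, MED4, MED16, MED30, CCNC and CDK8, all between -0.44 and -0.64 except CDK8, were lost with another normalization (adjusted p from 0.061 to 0.105 with RLE size factors).

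Relative to the other genes, the kinase module did not move as one unit in MOLT4 with KI-CDK9d-32. With spike-in scaling all 6 of its genes were called lower at 8 h. MED12, which activates the kinase through cyclin C, held 41.4, 54.2, 51.4 and 46.9 CPM with DMSO at 8 h and 106, 91.5, 75.6 and 102 with the degrader, without overlap. Its change was 0.96 ± 0.17 (adjusted p = 3.15e-06) relative to the other genes and -1.81 with spike-in scaling. MED13, which links the kinase module to the core, was at 16.1, 12.5, 16.6 and 14.6 CPM with DMSO and 32.1, 34.2, 22.1 and 23.4 with the degrader, a change of 0.91 ± 0.22 (0.000465) relative to the other genes and -1.88 with spike-in scaling. At 4 h the same gene had been lower (-0.71 ± 0.23, 0.0161). The groups of MED13L, the paralog of MED13, overlapped: 15.5, 25.2, 19 and 25.6 CPM with DMSO and 23.6, 48.8, 24.9 and 40.4 with the degrader (0.71 ± 0.22, adjusted p = 0.00735; -2.04 with spike-in scaling; the call was lost without replicate 2 of the degrader, at 0.0654). CDK8 was called lower (-1.83 ± 0.77, 0.0433) on few counts, 4.09, 2.49, 4.93 and 3.56 CPM against 0.655, 1.83, 1.84 and 0. That call did not hold in 5 of 8 fits without 1 library, with an adjusted p of up to 0.164. CCNC was at 20.4, 28.1, 28.5 and 20.7 CPM with DMSO and 20.3, 20.7, 9.22 and 11.1 with the degrader (-0.64 ± 0.26, 0.0373), with overlap, and its call was lost in 4 of 8 such fits (up to 0.178). CDK19 gave -0.17 ± 0.59. Outside the module, MED15, the tail subunit that binds activators, went from 39.2, 31.8, 44.4 and 46.6 to 72.1, 56.8, 49.8 and 65.5 CPM, a change of 0.60 ± 0.16 (0.00137) relative to the other genes and -2.20 with spike-in scaling.

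**Figure D2:**
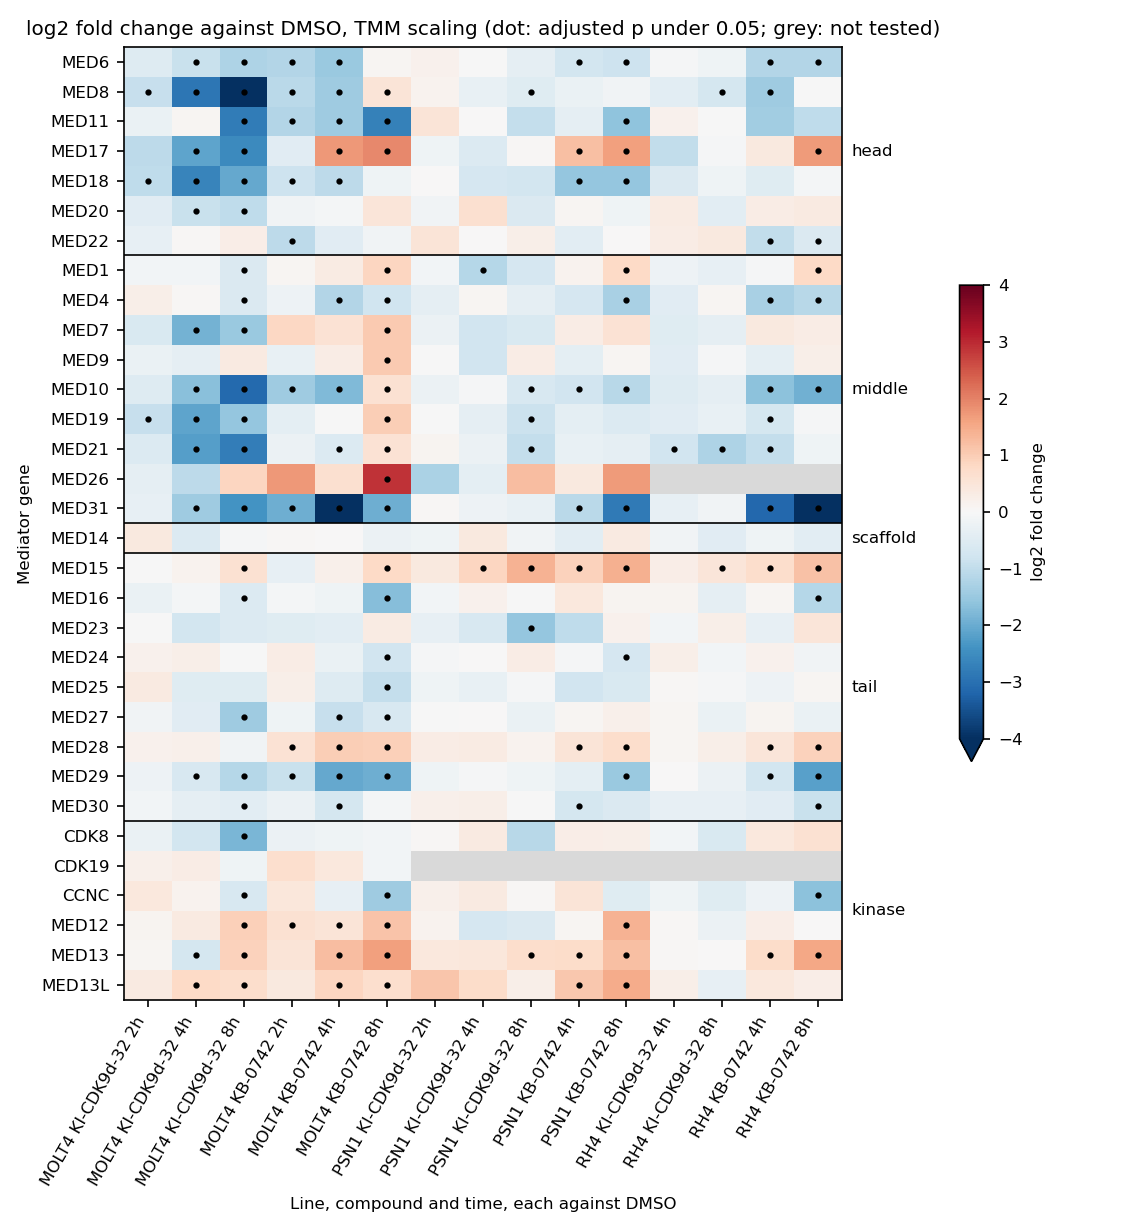
log2 fold change of each Mediator gene against DMSO at the same time (TMM scaling), by line, compound and time, with modules separated by lines. Dots mark adjusted p under 0.05, grey cells were not tested, and values below -4 share the darkest blue. In MOLT4 with KI-CDK9d-32 the dotted blue cells of the head and middle genes number 3, 10 and 13 at 2, 4 and 8 h, while KB-0742 at 8 h has blue MED31 and MED29 beside red MED13, MED15 and MED17, although with spike-in scaling no red cell keeps its call.

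KB-0742 in MOLT4 called more Mediator genes lower than higher at 2 h and at 4 h, and more higher than lower at 8 h. At 2 h 2 were higher and 8 lower of 32 (all genes: 13.2% and 12.9%). At 4 h 5 were higher and 11 lower (18.1% and 17.7%), and at 8 h 14 were higher and 9 lower (23.4% and 25.8%). The median over the members was -0.22, -0.22 and 0.19, beside -0.05, -0.04 and -0.10 over all genes. With spike-in scaling the 8 h median was -1.09 and the count 0 higher and 14 lower, so every higher call is relative to the other genes. By module at 8 h, 7 of 9 middle genes were higher and 2 lower, and 5 of 9 tail genes were lower and 2 higher.

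MED31, a small middle subunit, had the largest fall of the members with KB-0742 in MOLT4 at 4 h. There it totalled 118 counts over 3 vehicle libraries and 3 counts over 4 treated libraries, a ratio of 0.0383 with a 95% counting interval of 0.00779 to 0.115. At 8 h it held 10.6, 12.8, 13.7 and 14.6 CPM with DMSO and 1.36, 0.524, 6.29 and 4.56 with KB-0742 (-1.97 ± 0.52, adjusted p = 0.00155). The groups did not overlap, and 2 of the treated libraries were several-fold above the other 2. MED29, a tail subunit, went from 68.7, 47.1, 34.9 and 58.9 to 13.1, 11, 17.1 and 13.3 CPM (-1.94 ± 0.21, 7.01e-11). MED16, another tail subunit, went from 49, 45.8, 55.7 and 58.3 to 17.6, 10.5, 20.2 and 15.2 CPM (-1.70 ± 0.21, 2.94e-09). CCNC, the cyclin of the kinase, went from 20.4, 28.1, 28.5 and 20.7 to 7.68, 7.33, 11.7 and 9.12 CPM (-1.43 ± 0.27, 1.26e-05). None of these groups overlapped, which was a condition for printing MED29 and MED16 in full. MED11 fell by 2.71 ± 0.46 (2.98e-06).

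Among the higher members, MED17 went from 11.4, 15.3, 4.93 and 12.6 CPM with DMSO to 51.5, 49.2, 26.5 and 43.3 with KB-0742 in MOLT4 at 8 h. The change was 1.93 ± 0.35 (adjusted p = 1.28e-05), and with spike-in scaling it kept its sign at 0.58 without a call. MED13 went to 52.4, 55, 37.3 and 41.4 CPM from the vehicle values given above (1.63 ± 0.21, 3.72e-09; 0.30 with spike-in scaling, not called). MED12 reached 111, 120, 88.6 and 107 CPM (1.14 ± 0.16, 6.51e-08), or -0.18 with spike-in scaling. MED13L reached 38.4, 45.6, 32.4 and 20.9 CPM, overlapping the vehicle group (0.68 ± 0.22, 0.00882), or -0.70 with spike-in scaling; the call was lost in 2 of 8 fits without 1 library (up to 0.0659). MED26 gave the highest fold change, 2.90 ± 0.88 (0.00538), on 11 counts against 59, and it is named here after its values were seen. CDK8 and CDK19 gave -0.10 ± 0.61 and -0.10 ± 0.55.

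The 4 h and 8 h effects of KB-0742 in MOLT4 differed for 8 members, 6 of them higher at 8 h (all genes 7.8%) and 2 lower (9.95%). MED10 had 15.5 ± 3.05 CPM at 2 h and 14.4 ± 7.61 at 4 h with KB-0742, against 41.9 ± 5.88 and 50 ± 5.43 with DMSO. At 8 h it had 61.4, 52.4, 76.9 and 65.4 CPM, above all 4 vehicle libraries. Its effect moved by 2.37 ± 0.37 (log2, adjusted p = 6.9e-06) from 4 h to 8 h. MED8 moved by 1.95 ± 0.33 (2.48e-05), from 9.94 ± 2.94 CPM at 4 h to 47.6 ± 1.77 at 8 h. MED6, a head subunit at the contact with the middle, moved by 1.54 ± 0.34 (0.000928), from 10.1 ± 4.1 CPM at 4 h to 26.5 ± 9.4 at 8 h, when its difference from DMSO was 0.07 ± 0.22 (-1.26 with spike-in scaling). MED21 and MED19 moved by 1.13 ± 0.30 and 1.02 ± 0.29. MED16 and CCNC moved the other way. MED16 was at 51.7 ± 9.8 CPM at 4 h, against 58.6 ± 1.83 with DMSO (-0.17 ± 0.20), and its effect moved by -1.53 ± 0.30 (0.000137). CCNC moved by -1.11 ± 0.38 (0.0314), and that call was lost in 10 of 15 fits without 1 library (up to 0.0822). With spike-in scaling none of the 8 passed the threshold, and their signs were the same. For KI-CDK9d-32 in MOLT4, 1 member had a higher effect at 8 h than at 4 h (all genes 5.15%) and 3 a lower one (7.36%). These were MED13 (1.62 ± 0.32, 0.000202; -0.14 with spike-in scaling), MED11 (-2.89 ± 0.67, 0.00161), MED10 (-1.45 ± 0.47, 0.0308; lost in 5 of 15 fits without 1 library, up to 0.111) and MED27 (-0.98 ± 0.27, 0.0103).

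The direct comparison of the compounds in MOLT4 gave 5 higher and 3 lower members with KI-CDK9d-32 than with KB-0742 at 2 h (all genes: 8.2% and 10.1%). It gave 6 higher and 10 lower at 4 h (14.6% and 21.1%), and 4 higher and 15 lower at 8 h (28.9% and 29.6%). The 8 h median over the members was -0.70, beside 0.04 over all genes. The differences at 8 h were -4.63 ± 0.34 for MED8 (adjusted p = 1.17e-16), -4.47 ± 0.50 for MED17 (2.27e-10), -3.71 ± 0.34 for MED10 (6.97e-13) and -3.35 ± 0.27 for MED21 (5.12e-15). MED19 and MED7, both middle subunits, each gave -2.52, with errors of 0.24 and 0.44. Both compounds were also set against the same DMSO libraries, so the values against DMSO are not independent of each other. MED19 gave -1.54 ± 0.25 with the degrader against DMSO, and 0.99 ± 0.20 with the inhibitor (-0.32 with spike-in scaling). MED7 gave -1.48 ± 0.45 and 1.03 ± 0.36 (-0.29 for the inhibitor with spike-in scaling). MED1, the subunit that binds nuclear receptors, gave -0.58 ± 0.22 and 0.85 ± 0.19 (-0.53 for the inhibitor with spike-in scaling). With the inhibitor MED8, MED10 and MED21 gave 0.51 ± 0.21, 0.61 ± 0.24 and 0.57 ± 0.20, or -0.80, -0.71 and -0.73 with spike-in scaling. Some inhibitor calls were weak, as those of MED8, MED10 and MED21 were lost in 6, 5 and 2 of 8 fits without 1 library (up to 0.101, 0.0977 and 0.0883), and that of MED7 in 1 (0.0517). The degrader call of MED1 was lost in 4 (up to 0.0994). MED17 and MED19 kept both calls in every such fit. The higher differences were 1.15 ± 0.23 for MED16, 0.80 ± 0.24 for MED29, 0.79 ± 0.30 for CCNC and 0.75 ± 0.17 for MED24, but -0.24, -0.76, -0.68 and -0.69 with spike-in scaling. That of CCNC was lost in 4 of 8 fits without 1 library (up to 0.0909). At 4 h, MED31 held 37 counts under KI-CDK9d-32 and 3 under KB-0742, a ratio of 10.1 with a 95% counting interval of 3.19 to 51.1.

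**Figure D3:**
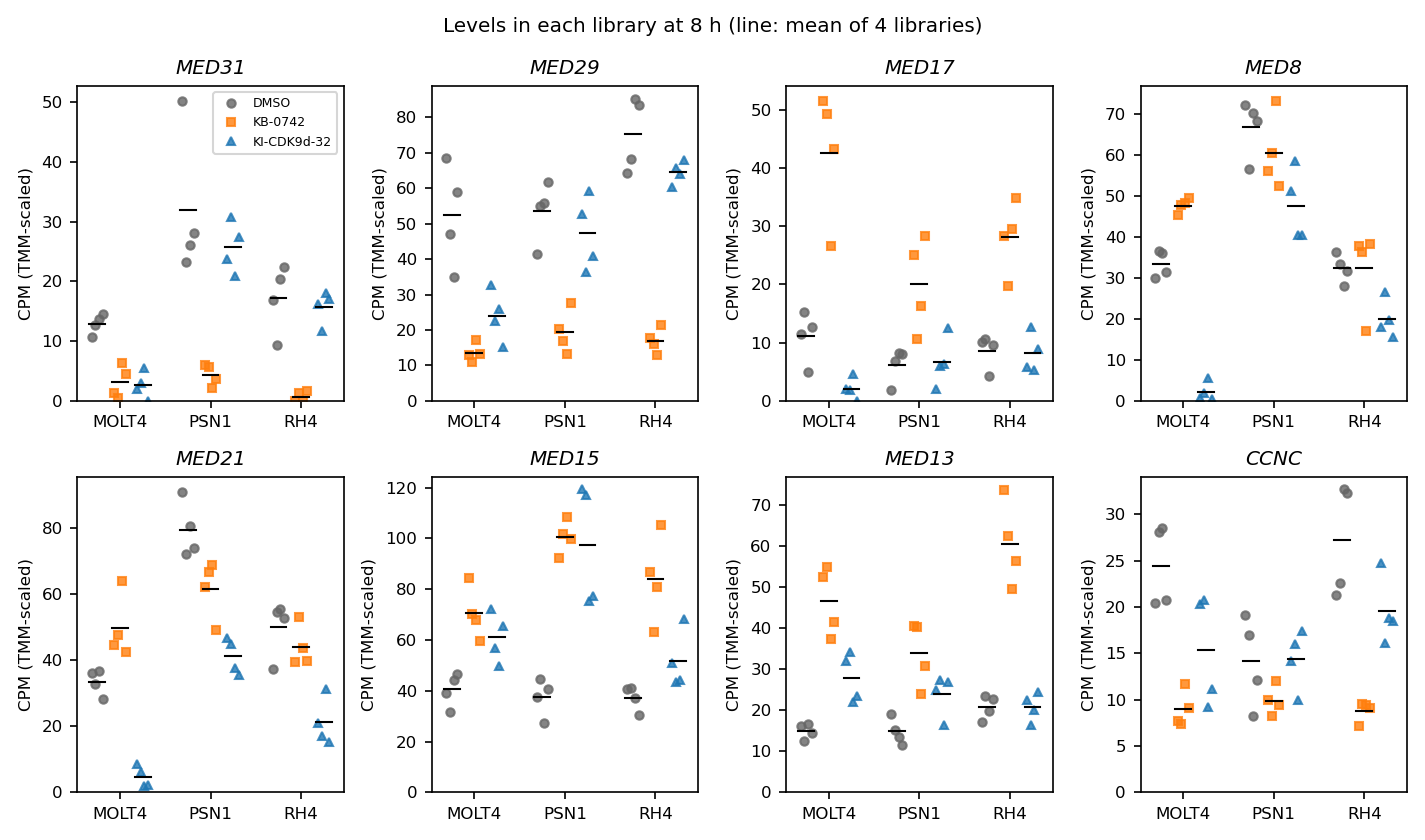
CPM with TMM scaling in each library at 8 h for 8 Mediator genes in 3 lines, with DMSO, KB-0742 and KI-CDK9d-32 side by side and a line at each mean of 4 libraries. MED31 and MED29 are low with KB-0742 in every line, MED17 and MED13 are high with it, and MED8 is near 0 only in MOLT4 with KI-CDK9d-32. In MOLT4 MED31 and MED29 are also lower with KI-CDK9d-32 than with DMSO. On the spike-in scale MED17 with KB-0742 is at 0.58, 0.67 and 0.16 (log2) against DMSO in MOLT4, PSN1 and RH4, none of them called. On that scale MED13 is at -0.07 in RH4.

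In PSN1, KI-CDK9d-32 called few Mediator genes. At 2 h none of 31 passed in edgeR or in DESeq2 (all genes 0.128% higher and 0.353% lower), and 3 had an unadjusted p under 0.05. At 4 h 1 was higher (all genes 3.62%) and 1 lower (3.74%), and at 8 h 2 were higher (11%) and 5 lower (9.61%), with a median of -0.27 over the members and -0.05 over all genes. The lower ones came from the head, middle and tail. MED21 went from 90.8, 72, 80.5 and 74 CPM with DMSO to 46.6, 45, 37.6 and 35.4 with the degrader at 8 h, without overlap (-0.94 ± 0.15, adjusted p = 7.3e-06). MED19 went from 25.7, 30.9, 22.5 and 26.7 to 14.1, 14.9, 17.2 and 12 CPM (-0.85 ± 0.24, 0.0089). MED10 went from 51.7, 55.1, 45 and 52.5 to 28.7, 35.7, 27.2 and 38.9 CPM (-0.65 ± 0.18, 0.00825). No treated library of these 3 genes reached a vehicle library, which was a condition for printing them in full. MED8 (-0.48 ± 0.16, 0.0223) and MED23 (-1.56 ± 0.50, 0.021), a tail subunit, overlapped, and their calls were lost in 3 and 4 of 8 fits without 1 library (up to 0.0896 and 0.092). MED15 went from 37.6, 44.5, 27.5 and 40.7 to 119, 117, 75.2 and 77.3 CPM, the highest change at 1.38 ± 0.17 (1.74e-07), and 0.42 with spike-in scaling without a call. MED13 was at 19.2, 15.3, 13.6 and 11.6 CPM with DMSO and 25, 27.5, 16.3 and 26.9 with the degrader (0.69 ± 0.23, 0.0243; -0.28 with spike-in scaling; lost in 6 of 8 fits without 1 library, up to 0.09). At 4 h MED15 was higher (0.87 ± 0.17, 0.00064) and MED1 lower (-1.14 ± 0.24, 0.00216).

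KB-0742 in PSN1 gave 5 higher and 5 lower members at 4 h (all genes: 11.3% and 12.6%) and 7 higher and 8 lower at 8 h (15.1% in each direction). MED31 went from 50.2, 23.3, 26 and 28.1 to 6.04, 5.76, 2.15 and 3.66 CPM at 8 h (-2.83 ± 0.28, adjusted p = 2.89e-10). MED11 went from 11.9, 9.32, 13.3 and 6.88 to 2.59, 3.29, 4.3 and 3.14 CPM (-1.62 ± 0.41, 0.00247), and MED29 from 41.4, 55.1, 55.9 and 61.9 to 20.3, 16.9, 13.3 and 27.7 (-1.47 ± 0.20, 3.55e-07). In each of these genes all treated libraries were below all vehicle libraries, which was a condition for printing them in full. MED17 went from 1.92, 6.78, 8.28 and 7.98 to 25, 10.7, 16.3 and 28.2 CPM (1.65 ± 0.40, 0.00146). MED13L rose from 4.98, 5.51, 6.21 and 5.23 to 17.3, 14.4, 17.6 and 13.1 CPM (1.5 ± 0.35, 0.00105), and MED15 rose to 92.3, 102, 108 and 99.9 CPM (1.42 ± 0.17, 3.43e-08). MED12 was at 4.6, 31.8, 26.9 and 26.7 CPM with DMSO, where replicate 1 lay far below the rest, and at 56.9, 66.2, 55 and 59.1 with KB-0742 (1.39 ± 0.29, 0.000421). MED13 reached 40.6, 40.3, 24.1 and 30.9 CPM (1.20 ± 0.22, 6.75e-05). With spike-in scaling these 5 rises were between 0.34 and 0.67 and none was called. Without replicate 1 of DMSO the 8 h count was again 7 higher and 8 lower.

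Between the compounds in PSN1, KI-CDK9d-32 gave 4 higher and 3 lower members than KB-0742 at 4 h (all genes: 9.97% and 7.47%), and 3 higher and 8 lower at 8 h (12% and 12.8%). At 8 h the differences were 2.53 ± 0.29 for MED31 (adjusted p = 6.96e-09), 1.29 ± 0.20 for MED29 (5.33e-06), 0.96 ± 0.22 for MED24 (0.00122; lost without replicate 1 of KI-CDK9d-32, at 0.0517), -1.96 ± 0.31 for MED12 (8.77e-06), -1.59 ± 0.41 for MED17 (0.00303) and -1.46 ± 0.25 for MED1 (1.72e-05). With the degrader against DMSO, MED31, MED29 and MED17 did not pass the test (-0.31 ± 0.23, -0.18 ± 0.18 and 0.06 ± 0.43, the last -0.99 with spike-in scaling). The effect of KB-0742 grew from 4 h to 8 h for MED31 (-1.76 ± 0.37, 0.00688) and MED29 (-1.09 ± 0.27, 0.0237; lost in 3 of 16 fits without 1 library, up to 0.0727), and 0 members had a higher effect (all genes 0.577% lower, 1.31% higher). With spike-in scaling neither MED31 nor MED29 was called for this change. For KI-CDK9d-32 no member passed in edgeR (all genes 0.00802% in each direction), with 4 at an unadjusted p under 0.05.

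In RH4, KI-CDK9d-32 called 0 higher and 1 lower of 30 members at 4 h (all genes: 3.47% and 1.89%) and 1 higher and 2 lower at 8 h (9.19% and 6.05%). MED21 was lower at both times. At 8 h it was at 37.3, 54.6, 55.3 and 52.8 CPM with DMSO and at 21.1, 17.1, 31.2 and 15.3 with the degrader (-1.25 ± 0.19, adjusted p = 5.5e-06), without overlap. MED8 went from 36.2, 33.5, 28.1 and 31.8 to 18, 26.5, 19.7 and 15.7 CPM (-0.69 ± 0.22, 0.0269), and MED15 from 40.8, 40.9, 37 and 30.6 to 50.8, 43.3, 44.3 and 68.4 (0.47 ± 0.16, 0.0389; -0.42 with spike-in scaling). Neither pair of groups overlapped, which was a condition for printing them in full. Still, the calls of MED8 and MED15 were lost in 5 and 4 of 8 fits without 1 library (up to 0.108 and 0.252), and without replicate 1 of the degrader 1 member was called in all. MED31 and MED29 gave -0.14 ± 0.28 and -0.22 ± 0.14.

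KB-0742 in RH4 gave 3 higher and 9 lower members at 4 h (all genes: 15.4% and 16.3%) and 5 higher and 9 lower at 8 h (22.5% and 22.9%). MED31 went from 16.9, 9.44, 20.4 and 22.5 CPM to 0, 1.27, 0 and 1.66 at 8 h (-4.65 ± 0.49, adjusted p = 2.86e-10), on 243 counts against 4. MED29 went from 64.3, 68.4, 85.2 and 83.5 to 17.7, 15.9, 13 and 21.5 CPM (-2.16 ± 0.17, 1.86e-13), MED10 from 23, 25.5, 24.1 and 42.7 to 9.96, 10.8, 3.54 and 5.8 (-1.91 ± 0.32, 3.72e-06), and CCNC from 21.2, 22.6, 32.7 and 32.3 to 7.2, 9.56, 9.43 and 9.12 (-1.63 ± 0.25, 8.61e-07). All treated libraries of these 4 genes were below all vehicle libraries, which was a condition for printing MED31, MED29 and MED10 in full. MED17 went from 10, 10.6, 4.3 and 9.55 to 28.2, 19.8, 29.5 and 34.8 CPM (1.69 ± 0.37, 0.000238; 0.16 with spike-in scaling, not called). MED13 went from 17.2, 23.5, 19.8 and 22.8 to 73.6, 62.5, 49.5 and 56.4 CPM (1.54 ± 0.19, 1.08e-08; -0.07 with spike-in scaling). MED15 reached 86.9, 63.1, 80.7 and 105 CPM (1.16 ± 0.16, 1.24e-07; -0.41 with spike-in scaling). MED12 and MED13L, called higher in the other 2 lines, gave 0.02 ± 0.21 and 0.28 ± 0.30 (-1.55 and -1.27 with spike-in scaling). From 4 h to 8 h the effect fell for MED29 (-1.43 ± 0.23, 0.000106), CCNC (-1.41 ± 0.33, 0.00516) and MED16 (-1.20 ± 0.28, 0.00522), and rose for MED8 (1.41 ± 0.33, 0.00426), so that 1 member was higher and 3 lower (all genes: 4.4% and 4.11%). MED8 was at 12.4 ± 2.08 CPM at 4 h, against 33.4 ± 7.89 with DMSO, and at 8 h its difference from DMSO was -0.01 ± 0.22. With spike-in scaling MED8 was called lower than DMSO at 8 h, and its rise from 4 h to 8 h was not called. For KI-CDK9d-32 no member's effect differed between 4 h and 8 h in edgeR (all genes 0%), with 1 at an unadjusted p under 0.05.

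Between the compounds in RH4, 8 members were higher and 4 lower with KI-CDK9d-32 at 4 h (all genes: 13.4% and 12.4%), and 8 higher and 8 lower at 8 h (19.1% and 19.3%). The 8 h differences were 4.51 ± 0.50 for MED31 (adjusted p = 2.25e-09), 1.94 ± 0.18 for MED29 (1.68e-11), 1.55 ± 0.33 for MED10 (0.000192), 1.14 ± 0.26 for CCNC (0.000459), -1.74 ± 0.38 for MED17 (0.000307) and -1.54 ± 0.19 for MED13 (3.64e-08).

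**Figure D4:**
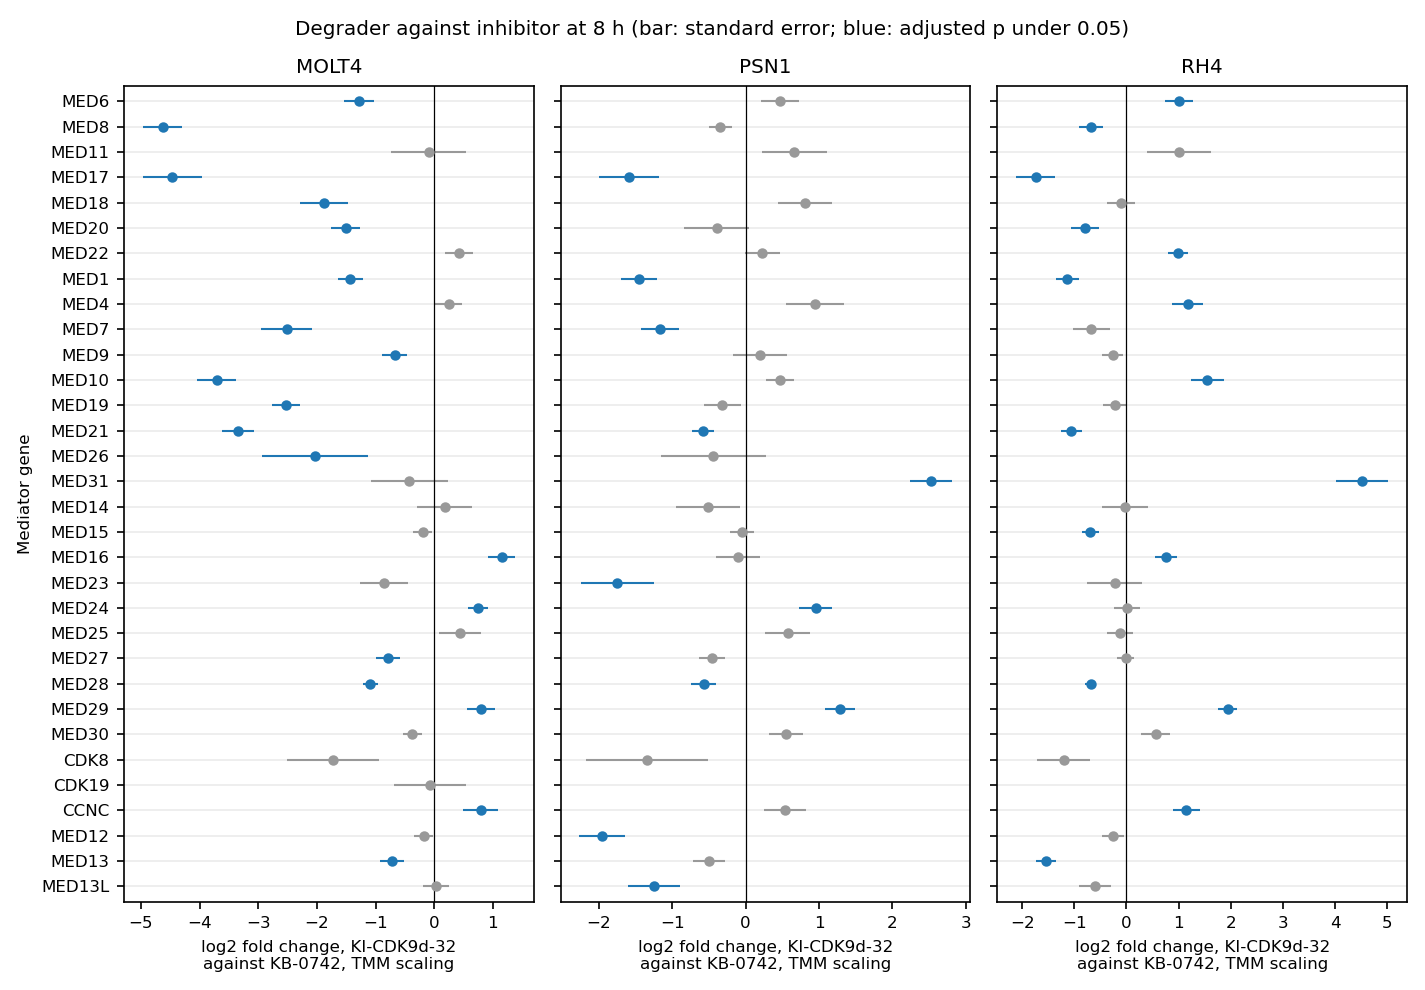
log2 fold change of KI-CDK9d-32 against KB-0742 at 8 h for each Mediator gene in MOLT4, PSN1 and RH4 (TMM scaling), as a point with its standard error, blue where the adjusted p is under 0.05. MED31 and MED29 lie to the right in PSN1 and RH4, MED17 lies to the left in all 3 lines, and MED8, MED10 and MED21 lie far to the left in MOLT4. With spike-in scaling MED29 is at -0.76 in MOLT4.

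Of the 30 members tested in all 3 lines, KB-0742 at 8 h lowered 3 in every line (MED4, MED29 and MED31). Relative to the other genes 5 were called higher in every line (MED1, MED13, MED15, MED17 and MED28). Of the 9338 genes tested in all 3 lines, 7.35% were lower and 10.3% higher in every line. Of these only MED17 was above 0 in all 3 lines with spike-in scaling. MED28, a subunit between head and tail, gave 0.96 ± 0.12 in MOLT4, 0.70 ± 0.17 in PSN1 and 0.91 ± 0.11 in RH4, but -0.39, -0.22 and -0.67 with spike-in scaling. MED1 gave 0.85 ± 0.19, 0.79 ± 0.23 and 0.79 ± 0.21, but -0.53, -0.11 and -0.80 with spike-in scaling. KI-CDK9d-32 lowered 2 members in every line (MED8 and MED21), and MED15 was called higher in every line (with spike-in scaling -2.20 in MOLT4, 0.42 in PSN1 and -0.42 in RH4). Among all genes 2.68% were lower and 5.31% higher in every line. Only MED10 was called higher in a line and lower in another with the same compound at 8 h, namely KB-0742, with 0.61 ± 0.24 in MOLT4 (-0.71 with spike-in scaling), -1.11 ± 0.19 in PSN1 and -1.91 ± 0.32 in RH4.

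The effect of KI-CDK9d-32 at 8 h differed between lines for many members where MOLT4 was compared. Against PSN1, 1 member was higher in MOLT4 and 8 lower (all genes: 7.35% and 10.3%), and against RH4 3 were higher and 11 lower (6.5% and 10.2%). Between PSN1 and RH4 1 member differed, MED15 (0.90 ± 0.23, adjusted p = 0.0336; all genes 0.327% higher), and that call was lost in 7 of 16 fits without 1 library (up to 0.106). The difference for MED8 was -3.57 ± 0.39 against PSN1 (3.15e-12) and -3.38 ± 0.40 against RH4 (9.56e-11). For MED10 it was -2.39 ± 0.42 and -2.68 ± 0.42, for MED17 -2.51 ± 0.74 and -2.43 ± 0.72, and for MED31 -2.03 ± 0.56 and -2.21 ± 0.57. MED17 lost its call without replicate 4 of PSN1 with KI-CDK9d-32 (0.0518) and, against RH4, without replicate 4 of MOLT4 with KI-CDK9d-32 (0.0531). MED12 was higher in MOLT4 than in PSN1 by 1.60 ± 0.33 (0.000137) and than in RH4 by 1.26 ± 0.32 (0.00209), but by -0.26 and -0.70 with spike-in scaling.

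For KB-0742, 3 members had a higher and 3 a lower effect in MOLT4 than in PSN1 (all genes: 4.36% and 7.98%), and 6 a higher one in MOLT4 than in RH4 (3.77%), with 0 lower (5.6%). The effect of 4 was higher and 1 lower in PSN1 than in RH4 (4.34% and 3.46%). MED10 differed by 1.63 ± 0.34 between MOLT4 and PSN1 (0.000216) and by 2.50 ± 0.38 between MOLT4 and RH4 (7.05e-07). MED16 differed by -1.88 ± 0.36 between MOLT4 and PSN1 (5.88e-05) and by 1.29 ± 0.36 between PSN1 and RH4 (0.0121; lost without replicate 1 of PSN1 with DMSO, at 0.0511). The count between PSN1 and RH4 fell to 2 without that library, and the count between MOLT4 and RH4 fell to 3 without replicate 3 of MOLT4 with KB-0742.

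Promoter bases are shown for 3 of the members called in every line with KB-0742 at 8 h, taken from opposite sides: MED31 was lower, and MED17 and MED15 were higher relative to the other genes (MED15 at -0.57 in MOLT4 and -0.41 in RH4 with spike-in scaling). Each stretch is the longest run within the 250 bases before the RefSeq start site (GRCh38.p14) that no GENCODE exon covers, read 5′ to 3′ on the gene's strand. Capitals mark the ETS core motif CCGGAAG and the GC box GGGCGG, on either strand. The stretches lie at chr17:6651635-6651717 (minus strand), chr11:93784032-93784226 (plus strand) and chr22:20507360-20507540 (plus strand).
MED31: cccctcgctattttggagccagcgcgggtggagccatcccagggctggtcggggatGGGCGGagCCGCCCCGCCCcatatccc
MED17: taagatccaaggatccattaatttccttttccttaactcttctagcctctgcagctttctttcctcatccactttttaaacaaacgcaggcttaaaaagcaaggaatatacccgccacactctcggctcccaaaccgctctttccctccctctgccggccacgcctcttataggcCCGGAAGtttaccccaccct
MED15: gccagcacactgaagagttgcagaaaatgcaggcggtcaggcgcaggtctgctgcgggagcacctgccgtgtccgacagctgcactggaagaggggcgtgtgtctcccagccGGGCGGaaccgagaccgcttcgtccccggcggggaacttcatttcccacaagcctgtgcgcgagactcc
The MED31 stretch holds 3 GC boxes, 2 of them overlapping, the MED17 stretch 1 ETS core and no GC box, and the MED15 stretch 1 GC box. ETS cores of all 3 genes also lie nearer the start site, outside the stretches shown. Promoter windows were found for 24 of 32 members (29 windows of 300 bases, which add the 50 bases after the start site). On either strand, 7 members had the ETS core (MED7, MED11, MED15, MED17, MED18, MED29 and MED31). It stood in 8 of the 29 windows, beside 10.3% of 35116 windows of the same length. The GC box GGGCGG stood in windows of 16 members (18 of 29 windows, beside 45% of all windows). CCAAT stood in those of 9 members (10 of 29, beside 34.6%) and TATAAA in those of 2 (2 of 29, beside 11.5%). The median GC content of the members' windows was 58%, beside 58.7% over all windows. Other members were called in every line with KB-0742 at 8 h. Of these, MED4 (lower) and MED1 (higher) had neither ETS core nor GC box, and MED29 (lower) had both. MED13 and MED28 (both higher) had no window. A match describes letters in the window and does not show a bound factor.

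Several of these genes share transcribed bases or promoters with neighbours in the GENCODE annotation (GRCh38). The library kit does not keep strand, so reads that lie wholly within shared bases cannot be told apart by strand. MED31 (chromosome 17, 6643315 to 6651634, minus strand, 4 merged exons) shares 1227 exonic bases with TXNDC17 on the other strand, of its 2103 exonic bases. MED17 (chromosome 11, 93784227 to 93814963, plus strand) shares 2156 exonic bases with AP001273.2 on the same strand and 88 with TAF1D on the other. MED28 (chromosome 4, 17614631 to 17634105) shares 3520 with FAM184B. MED8 (chromosome 1, 43383917 to 43389808, minus strand) shares 139 with AL139289.1. MED29 (chromosome 19, 39391303 to 39400637) shares no exonic base and starts 108 bases from PAF1, which codes for an elongation factor subunit. MED10, MED21, MED12 and MED13 have no exonic overlap with another gene.

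The genomic span of the members ran alongside their fold changes in several comparisons. Across 31 members in PSN1 with KB-0742 at 8 h, Pearson's r between log10 span and log2 fold change was 0.618 and Spearman's rho 0.66, whereas over 12112 genes r was -0.06. In RH4 with KB-0742 at 4 h r was 0.613 and rho 0.667 across 30 members, and at 8 h 0.441 and 0.438. In MOLT4 with KI-CDK9d-32 at 8 h r was 0.514 and rho 0.489 across 32 members, beside -0.05 over 11316 genes. In MOLT4 with KB-0742 r was 0.298 at 8 h, and in RH4 with KI-CDK9d-32 it was -0.05. These are descriptions across genes measured in the same libraries, and genes are not independent replicates. MED31 spans 8320 bases and MED11 2183, while MED13 spans 122678, MED13L 323848 and MED15 91720. Other members lay off such a slope. MED27, a tail subunit of 219802 bases, was lower in MOLT4 at 8 h, at -1.43 ± 0.20 under KI-CDK9d-32 and -0.65 ± 0.18 under KB-0742. MED8 and MED10 span 5892 and 6714 bases, and both were called higher in MOLT4 with KB-0742 at 8 h (0.51 and 0.61, but -0.80 and -0.71 with spike-in scaling).

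**Figure D5:**
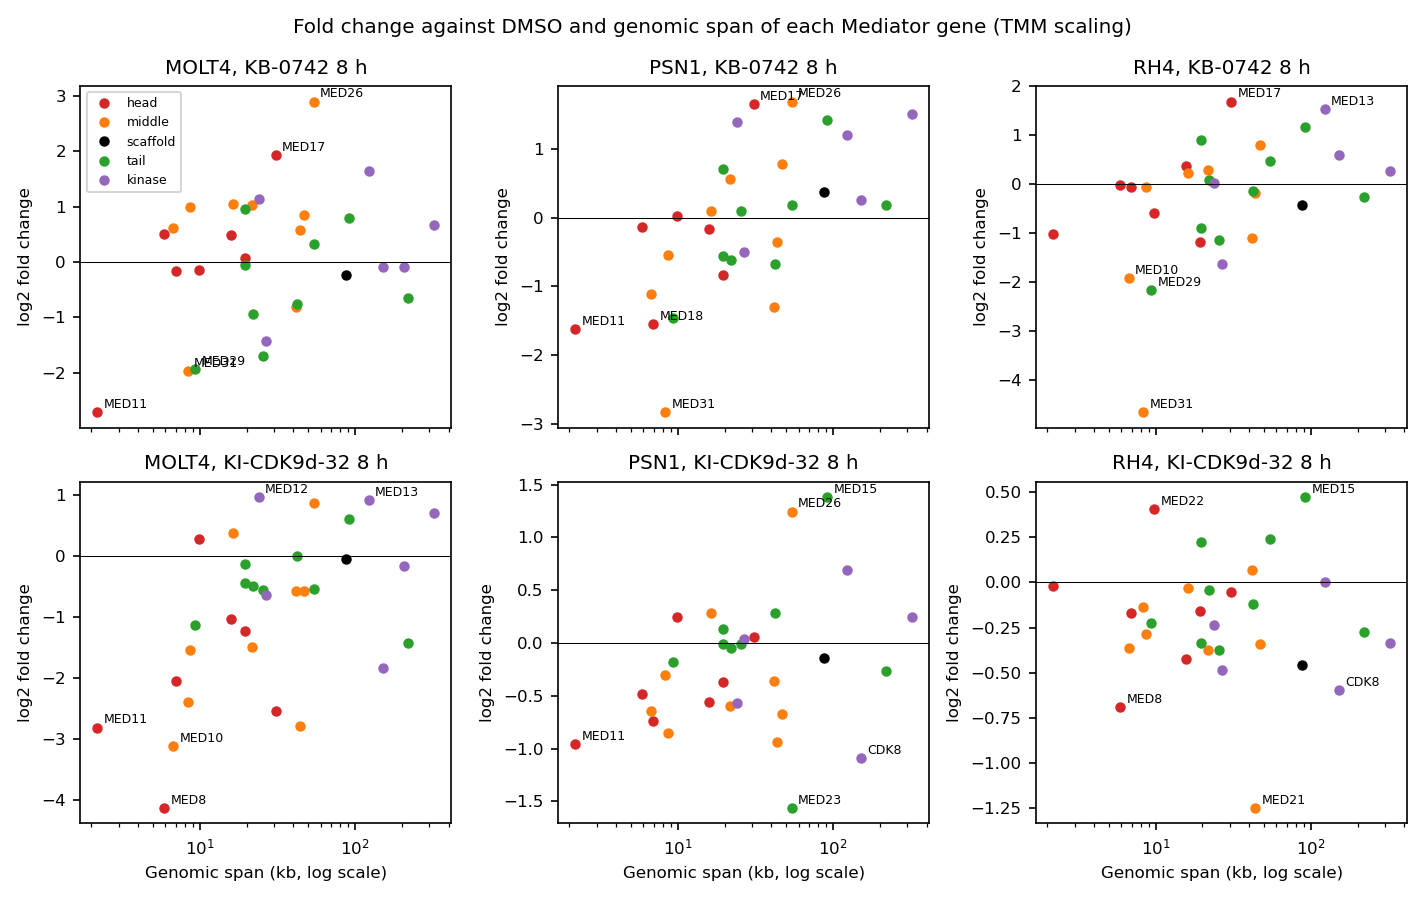
log2 fold change against DMSO at 8 h (TMM scaling) against genomic span in kb (log axis), each point a Mediator gene coloured by module, with panels for the 2 compounds and 3 lines. With KB-0742 the short MED31 and MED11 lie below 0 and the long MED13 lies above, although with spike-in scaling MED13 is at 0.30, 0.34 and -0.07 in MOLT4, PSN1 and RH4. In MOLT4 the long MED27 also lies below 0. No such slope is seen in RH4 with KI-CDK9d-32.

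A list of 15 partner genes (the MED12 paralog MED12L, the coactivators EP300 and CREBBP, cohesin and its loader, the CDK7 complex and P-TEFb) was followed beside the members. At 8 h with KB-0742, 9 of 15 were higher and 2 lower in MOLT4, 6 of 14 higher and 2 lower in PSN1, and 7 of 13 higher and 2 lower in RH4, against the shares of all genes given above. With spike-in scaling 0, 1 and 1 were higher and 4, 2 and 10 lower. CCNT1, the cyclin of P-TEFb, gave 1.95 ± 0.24, 1.76 ± 0.25 and 2.61 ± 0.24, and MNAT1, the assembly factor of the CDK7 complex, -2.20 ± 0.28, -1.08 ± 0.20 and -1.41 ± 0.20. With KI-CDK9d-32 at 8 h, 6 were higher and 6 lower in MOLT4, 1 higher and 2 lower in PSN1, and 0 higher and 1 lower in RH4. With spike-in scaling 0 were higher in each line and 15, 7 and 10 lower. In MOLT4 CCNH, the cyclin of CDK7, gave -2.85 ± 0.33 (adjusted p = 2.8e-10) with the degrader and 1.08 ± 0.22 (5e-05; -0.21 with spike-in scaling) with the inhibitor, and MED12L gave 1.68 ± 0.26 (2.4e-07; -1.14 with spike-in scaling) with the degrader. MED14, the scaffold, was not called against DMSO in any of the 15 comparisons, with 8 h values of -0.05 ± 0.45 in MOLT4 with KI-CDK9d-32, 0.37 ± 0.42 in PSN1 with KB-0742 (-0.44 with spike-in scaling) and -0.43 ± 0.43 in RH4 with KB-0742, although spike-in scaling called it lower in 5 of them.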

How the data were processed

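The members and gene lists were chosen with earlier results of these data known. Per the labels' protocols, total RNA, extracted from cell lysates after ERCC and SIRV spike-ins were added, was made into libraries with a SMART-seq2 protocol and Nextera XT, a kit that does not mark strand. The submitters' processing notes name Salmon, without a version, and the build hg38. The authors deposited expected counts per gene, which were rounded to whole numbers here, and log2(TPM + 1) values, which were used to compare levels between genes and to check the order of group means. The deposited TPM of a library sum over genes and spike-ins together, so they also fall as the spike-in share rises. Spike-ins and 47 pseudoautosomal Y entries were left out of gene totals. Genes were filtered with filterByExpr (minimum count 10) and tested per line over all its groups with edgeR 4.0.16 quasi-likelihood tests, TMM scaling and Benjamini-Hochberg adjustment over all tested genes of a comparison, at a threshold of 0.05. The standard error is the log2 fold change divided by the root of its F statistic. Line differences came from 1 fit over the 91 libraries. CPM values are scaled by TMM. In fits without 1 library, the line differences kept the genes and dispersion trend of the full fit. Alternatives were RLE size factors, spike-in scaling (library size set to the summed spike-in counts), no filter, a replicate block, DESeq2 1.42.0 and leaving out each library. On simulated counts of KI-CDK9d-32 against DMSO at 8 h, 99, 99 and 100 of 100 genes changed 4-fold were recovered in MOLT4, PSN1 and RH4, and 57, 55 and 55 of 100 changed 2-fold. The changed genes were drawn from those with more counts, all genes shared the same dispersion, and most genes were left unchanged. These rates therefore do not cover members with few counts. Members are named by module. Every 8 h library is printed for up to 3 of the highest and 3 of the lowest called members of a comparison, if their groups do not overlap and their average log2 CPM is 3 or more, and for called kinase genes. For the highest and lowest members, non-overlap was thus fixed by the choice and adds no support. Other members are printed with values where a comparison turns on them. Some genes of the lists and annotation are not reported here.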

Additional observations from a re-analysis of the deposited data

Results flagged for a closer look

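In 4 of 96 groups tested, 1 library stood apart from the other 3 by Dixon's criterion, and chance flags about 1 in 20 groups. All 4 were RH4 libraries at 8 h. MED21 was at 37.3 CPM in replicate 1 with DMSO, against 52.8 to 55.3 in the others. MED17 was at 4.3 CPM in replicate 3 with DMSO, against 9.55 to 10.6, and MED10 at 42.7 CPM in replicate 4 with DMSO, against 23 to 25.5. MED8 was at 17.1 CPM in replicate 3 with KB-0742, against 36.3 to 38.1.

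The effect at 8 h differed between lines by the interaction test. With KI-CDK9d-32 this held for 9 members between MOLT4 and PSN1, led by MED8 at -3.57, for 14 between MOLT4 and RH4, led by MED8 at -3.38, and for 1 between PSN1 and RH4, MED15 at 0.90. With KB-0742 it held for 6 between MOLT4 and PSN1, led by MED16 at -1.88, for 6 between MOLT4 and RH4, led by MED31 at 2.68 (lost in 4 of 16 fits without 1 library), and for 5 between PSN1 and RH4, led by MED12 at 1.44. In PSN1 with DMSO at 8 h, replicate 1 held MED12 at 4.6 CPM, against 26.7 to 31.8 in the others. Without that library the count between PSN1 and RH4 fell to 2.

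The effect also differed between 4 h and 8 h. This held for 4 members in MOLT4 with KI-CDK9d-32, led by MED11 at -2.89, for 8 in MOLT4 with KB-0742, led by MED10 at 2.37, for 2 in PSN1 with KB-0742, led by MED31 at -1.76, and for 4 in RH4 with KB-0742, led by MED29 at -1.43.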

How the results depend on the processing

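Of 152 calls against DMSO, 146 held with RLE size factors, 146 with DESeq2, 139 with no filter, 152 with the replicate block and 98 with spike-in scaling. Spike-in scaling turned these called members (log2). Against DMSO with KI-CDK9d-32: MOLT4 MED13L -0.14 at 4 h, and at 8 h MED15 -2.20, MED12 -1.81, MED13 -1.88 and MED13L -2.04, PSN1 MED13 -0.28 and RH4 MED15 -0.42. With KB-0742 in MOLT4: MED28 -0.21 and MED12 -0.21 at 2 h, MED28 -0.32, MED12 -0.77, MED13 -0.23 and MED13L -0.44 at 4 h, and at 8 h MED8 -0.80, MED1 -0.53, MED7 -0.29, MED9 -0.27, MED10 -0.71, MED19 -0.32, MED21 -0.73, MED15 -0.57, MED28 -0.39, MED12 -0.18 and MED13L -0.70. With KB-0742 in PSN1: MED28 -0.25 and MED13 -0.091 at 4 h, MED1 -0.11 and MED28 -0.22 at 8 h. With KB-0742 in RH4: MED15 -0.33, MED28 -0.60 and MED13 -0.31 at 4 h, MED1 -0.80, MED15 -0.41, MED28 -0.67 and MED13 -0.068 at 8 h. Between compounds: MOLT4 8 h MED16 -0.24, MED24 -0.69, MED29 -0.76 and CCNC -0.68, RH4 4 h MED15 0.24, MED28 0.29 and MED13 0.000116, RH4 8 h MED8 0.0403. From 4 h to 8 h: MOLT4 KI-CDK9d-32 MED13 -0.14. Between lines with KI-CDK9d-32: MOLT4 minus PSN1 MED12 -0.26, MOLT4 minus RH4 MED12 -0.70, MED13 -0.98 and MED13L -0.84.

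Counts of called members moved with spike-in scaling. With KI-CDK9d-32 they went from 3 to 0 in MOLT4 at 2 h, from 2 to 6 and 7 to 22 in PSN1 at 4 and 8 h, and from 1 to 0 and 3 to 25 in RH4. With KB-0742 they went from 23 to 14 in MOLT4 at 8 h, 10 to 17 in PSN1 at 4 h, and 12 to 22 and 14 to 25 in RH4. Between compounds they went from 8 to 1 and 16 to 9 in MOLT4 at 2 and 4 h, and 7 to 4 in PSN1 at 4 h. From 4 h to 8 h they went from 4 to 20 and 8 to 0 in MOLT4 with KI-CDK9d-32 and KB-0742, and 2 to 0 in PSN1 with KB-0742. Between lines they went to 26, 26 and 0 with KI-CDK9d-32, and 1, 1 and 1 with KB-0742. DESeq2 gave 5 for MOLT4 with KI-CDK9d-32 at 2 h. No filter gave 5 between compounds in MOLT4 at 2 h, and 0 and 2 between PSN1 and RH4 with KI-CDK9d-32 and KB-0742, where RLE gave 3 with KB-0742. Leaving out 1 library gave 3 to 7 (MOLT4 minus RH4) and 2 to 5 (PSN1 minus RH4) with KB-0742, 0 to 1 (PSN1 minus RH4) with KI-CDK9d-32, 4 to 8 between compounds in MOLT4 at 2 h, 1 to 2 for the PSN1 KB-0742 time difference, and 1 to 2 and 1 to 3 for RH4 with KI-CDK9d-32 at 4 and 8 h. The cause was not tested.

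Same-numbered samples correlated above 0.1 in 0 of 136 pairs in MOLT4, 24 of 112 in PSN1 and 10 of 60 in RH4. As not every pair passed, the numbers were not taken to pair the samples. The median correlation was 0.0218, 0.0654 and 0.0545 for same-numbered samples, above that of other pairs (-0.00947, -0.0300 and -0.0253), and samples correlated best with their own number in 29 of 35, 30 of 32 and 22 of 24 cases. The replicate block gave 7 members for the RH4 KB-0742 time difference, against 4, and ended 1 of 89 compound calls, MED26 in MOLT4 at 8 h (adjusted p = 0.0628). With TPM in place of CPM, the order of the 3 group means at 8 h was the same in 20 of 32 cases, each a named member in a line. In MOLT4 MED12, MED13, MED15 and MED13L had means of 5.97, 1.22, 11.3 and 2.08 TPM with DMSO and 3.75, 0.742, 5.27 and 1.11 with KI-CDK9d-32, below the vehicle. Spike-ins made up 13.8% to 61.4% of TPM in MOLT4, 11.2% to 23.2% in PSN1 and 9.14% to 21.1% in RH4. Mean counts under 5 per library limited CDK19 and MED26.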
